A study of Mus musculus with 16 samples.

Results

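Imprinted genes are transcribed mainly or solely from the chromosome inherited from either the mother or the father. A set of 41 imprinted mouse genes, chosen by symbol from 18 imprinted clusters, was examined by RNA sequencing in heads of embryonic day 8.5 mouse embryos, where all 41 were found among the 24421 genes listed. Of these, 12 are known as maternally expressed, 23 as paternally expressed and 6 as imprinted only in some isoforms or tissues. The heads came from homozygous Ift88-null embryos (called mutant) and wild type (WT) embryos whose families had been kept for 3 generations on food with 10 ppm folic acid, called enriched, or 2 ppm, called moderate. The groups were enriched mutant, enriched WT, moderate mutant and moderate WT, with 4 libraries each. Ift88 encodes a subunit of the intraflagellar transport particle, without which cells do not build cilia, and in these embryos every cell carries the null genotype. The tissue ran from the first branchial arch to a level above the otic vesicle, so each library mixes neural tube, mesenchyme, ectoderm and vessels, and fewer cells of a type cannot be told apart from less RNA per cell. The labels name neither strain nor litter, so neither could enter the model. Each p-value rests on the scatter among libraries within groups, pooled over the 4 groups.

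In imprinted clusters, a control region that is DNA-methylated in the egg or the sperm silences genes on that parental chromosome, often through an insulator or a long non-coding RNA. The methylation is kept through the embryo's genome-wide demethylation by the zinc finger protein ZFP57, which binds the methylated hexamer TGCCGC and recruits TRIM28, and by the maintenance methyltransferase DNMT1. Many paternally expressed genes, such as Igf2, promote growth of embryo and placenta, while many maternally expressed genes, such as Igf2r and Cdkn1c, restrain it. Folic acid feeds the one-carbon cycle that supplies methyl groups, and the design asks what the diet and the loss of Ift88 each change. Read counts per gene do not separate the parental alleles, so all values below are totals over both, and neither allele use nor methylation was measured.

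Between 19249433 and 44267434 reads per library were assigned to genes. Levels are given as counts-per-million (CPM) of the scaled library total. Ift88 averaged 4.93 ± 2.69 CPM in enriched mutants, against 19.6 ± 1.42 CPM in enriched WT heads, and 3.81 ± 1.87 CPM in moderate mutants, against 17.7 ± 5.63 CPM in moderate WT heads (SD, n = 4 each). All mutants lay below all WT libraries in Ift88, the closest being enriched mutant replicate 2 at 8.61 CPM and moderate WT replicate 2 at 9.29 CPM. The other WT libraries had 17.8 to 20.9 CPM. In 3 moderate diet libraries, mutant replicates 1 and 2 and WT replicate 2, sex-linked counts contradicted the labelled sex. Moderate WT replicate 2 thus stood apart in both Ift88 and sex-linked counts, and whether its genotype label is right was not tested. Enriched mutant replicate 4 stood apart in markers of yolk sac endoderm, with a summed level of 162.9 CPM over the 14 genes of that list, against 23.3 to 59.3 CPM in the other 15 libraries. It also had the highest level of all 16 libraries for 8 imprinted genes and the lowest for 7. Results that rest on these libraries are given with and without them where a call changes. Markers of head and neural tube, such as Sox2, were present in all groups, and 18 such genes summed to 986 to 1152 CPM in enriched mutants, 1028 to 1064 CPM in enriched WT heads, 1035 to 1244 CPM in moderate mutants and 1026 to 1074 CPM in moderate WT heads.

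The promoter sequences of 3 members are shown, because Ascl2 and Nap1l5 were the imprinted genes called between genotypes on both diets and Igf2r is the textbook imprinted receptor of the growth pathway. Each line holds the 250 bases before the transcription start on the gene's own strand, from RefSeq on GRCm38.p6. Capitals mark matches on either strand, overlaps included, to TGCCGC, the letters of the hexamer bound by ZFP57, or to ACGTG, the core of the element bound by hypoxia-inducible factors. These motifs were chosen after the expression values were seen.
Ascl2 at chr7:142969265-142969514, minus strand: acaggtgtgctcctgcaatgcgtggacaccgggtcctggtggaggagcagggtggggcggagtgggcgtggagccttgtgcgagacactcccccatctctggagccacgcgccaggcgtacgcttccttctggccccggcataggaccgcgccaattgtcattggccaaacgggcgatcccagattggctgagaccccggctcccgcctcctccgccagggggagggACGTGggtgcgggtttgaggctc
Igf2r at chr17:12769707-12769956, minus strand: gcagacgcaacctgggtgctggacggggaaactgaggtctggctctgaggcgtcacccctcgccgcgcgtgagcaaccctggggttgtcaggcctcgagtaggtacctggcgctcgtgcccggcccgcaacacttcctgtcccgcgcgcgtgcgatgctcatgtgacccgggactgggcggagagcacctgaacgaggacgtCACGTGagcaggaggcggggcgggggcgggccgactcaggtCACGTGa
Nap1l5 at chr6:58907127-58907376, minus strand: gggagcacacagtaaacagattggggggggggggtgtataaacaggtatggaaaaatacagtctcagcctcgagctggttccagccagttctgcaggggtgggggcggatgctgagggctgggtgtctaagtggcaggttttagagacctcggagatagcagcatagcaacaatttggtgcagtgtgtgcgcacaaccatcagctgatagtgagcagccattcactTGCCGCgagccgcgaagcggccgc

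The Ascl2 window held 1 match to ACGTG and 19 CG dinucleotides, the Igf2r window 4 matches to ACGTG, counted on each strand of a pair of CACGTG sites, and 27 CG dinucleotides, and the Nap1l5 window 1 match to TGCCGC and 10 CG dinucleotides. Of the imprinted genes, 34 had a promoter in the RefSeq table, with 49 windows in all. Windows of a gene can overlap, so a site can count more than once. Those of Mest from 30737800 and 30737803 did, as did those of Gnas from 174327499 and 174327518. TGCCGC occurred in 14.3% of those 49 windows and in 8.7% of all 32851 windows of the same length. ACGTG occurred in 22.4% of the imprinted windows and 16.6% of all windows. The median window of an imprinted gene held 10 CG dinucleotides, against 6 for all windows. A match is a description of letters, and binding was not measured here.

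Set against the length of their exons, the 41 genes differed widely in level. At least 100 CPM per kb was seen for 7 genes, 10 to 100 for 12, 1 to 10 for 12 and under 1 for 10. The highest mean levels over the 16 libraries were 510 CPM per kb for Mest, a paternally expressed hydrolase-like gene of mesoderm, and 457 for H19, a maternally expressed long non-coding RNA. Nnat, a small membrane proteolipid of the developing nervous system, followed at 213, Grb10, an adaptor that restrains insulin and insulin-like growth factor receptors, at 196, and Igf2, the paternally expressed growth factor, at 148. Gnas, the stimulatory G protein alpha subunit, held 120 and Peg10, a gene of retrotransposon origin needed for the placenta, 116 CPM per kb. The ranges of Mest (460 to 623) and H19 across libraries overlapped, so their order was not resolved. At the other end, Snrpn had 0.0322 CPM per kb and Rasgrf1 0.00197, both below the count filter and not tested, which left 39 genes for tests. Snrpn lies in the Prader-Willi cluster and shares 10.0% of its exon bases with Snurf of the same transcript unit, so reads on those bases cannot be assigned with certainty. Snurf itself was at 0 CPM in every library but moderate WT replicate 4, at 0.0249 CPM. The annotation and counting options are not known, so the low count of Snrpn cannot be read as low expression of this unit. Rasgrf1, a Ras exchange factor of brain, was at 0 counts in 8 of 16 libraries. The library kit keeps no strand, and 23.1% of the exon bases of Mest are antisense to Copg2, 14.3% of those of Usp29 to Zim3, 8.8% of those of Gnas to Nespas and 9.2% of those of Zrsr1 to Commd1, so these levels are uncertain to that extent. All 41 genes together took 1.03% ± 0.0396 of the scaled library total in enriched mutants and 0.984% ± 0.0407 in enriched WT heads. In moderate mutants they took 1.07% ± 0.0351 and in moderate WT heads 0.986% ± 0.0325 (SD, n = 4 each). The scaling factors ran from 0.954 to 1.06 over the libraries, so these are not shares of the raw counts.

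**Figure D1:**
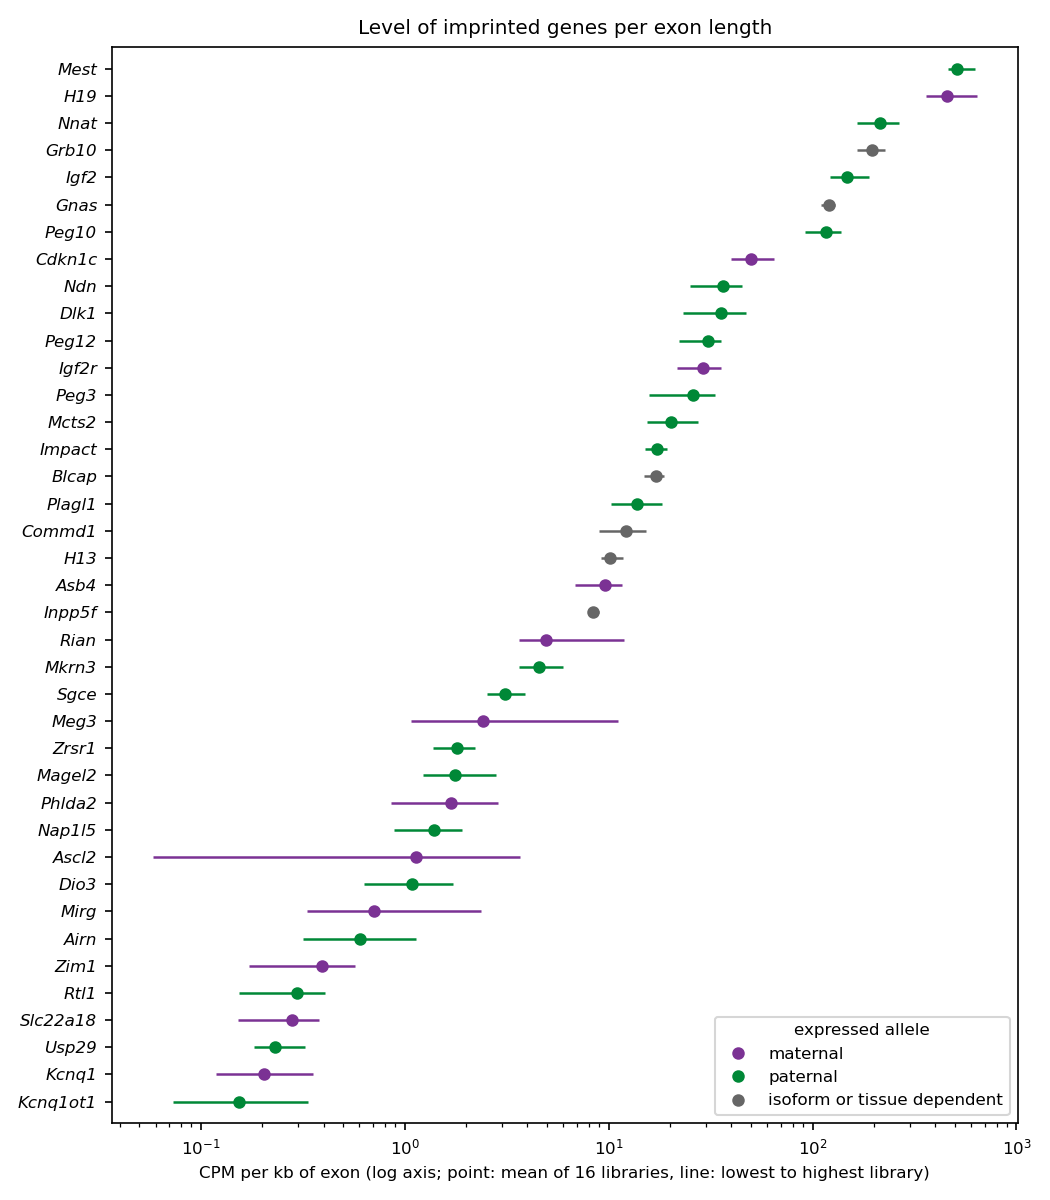
Level of the 39 tested imprinted genes in CPM per kb of exon, on a log axis. Points are means of 16 libraries, lines run from the lowest to the highest library, and colours give the expressed allele. Mest (510) and H19 (457) lead, and Ascl2 and Meg3 span the widest ranges for their level.

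Loss of Ift88 was followed by calls in both directions among the imprinted genes. A gene is said to have risen or fallen where the adjusted p of edgeR's quasi-likelihood test, taken over 14514 genes, was under 0.05. On the moderate diet, Ascl2 rose and Nap1l5 fell in mutants, 2 of 39 tested genes or 5.13%, where 7.62% of all genes were called. On the enriched diet, 12 of 39 or 30.8% were called, where 31.2% of all genes were. There, Ascl2, Igf2r, Grb10, Rian and Mirg rose and Peg12, Ndn, Nap1l5, Cdkn1c, H13, Nnat and Mcts2 fell. Averaged over both diets, 14 of 39 or 35.9% were called, where 35.8% of all genes were, and Sgce and Igf2 joined those that rose. These shares were close to those of all genes, so the number of calls does not set imprinted genes apart. Their median log2 fold change was -0.01 on the moderate diet (-0.01 for all genes), 0.03 on the enriched diet (-0.01 for all genes) and 0.01 averaged over diets (-0.01 for all genes). Without the 3 libraries with contradicted sex labels, the moderate count was 0 (0.726% of all genes called) and the averaged count 9 or 23.1% (20.5% of all genes). For the moderate count, leaving out moderate mutant replicate 1 or 4, or moderate WT replicate 1 or 4, gave 1 (3.71% to 5.42% of all genes called), and leaving out enriched mutant replicate 4 gave 4 (9.71% of all genes). The enriched count was 6 or 15.4% without enriched WT replicate 3, where 20.9% of all genes were called.

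**Figure D2:**
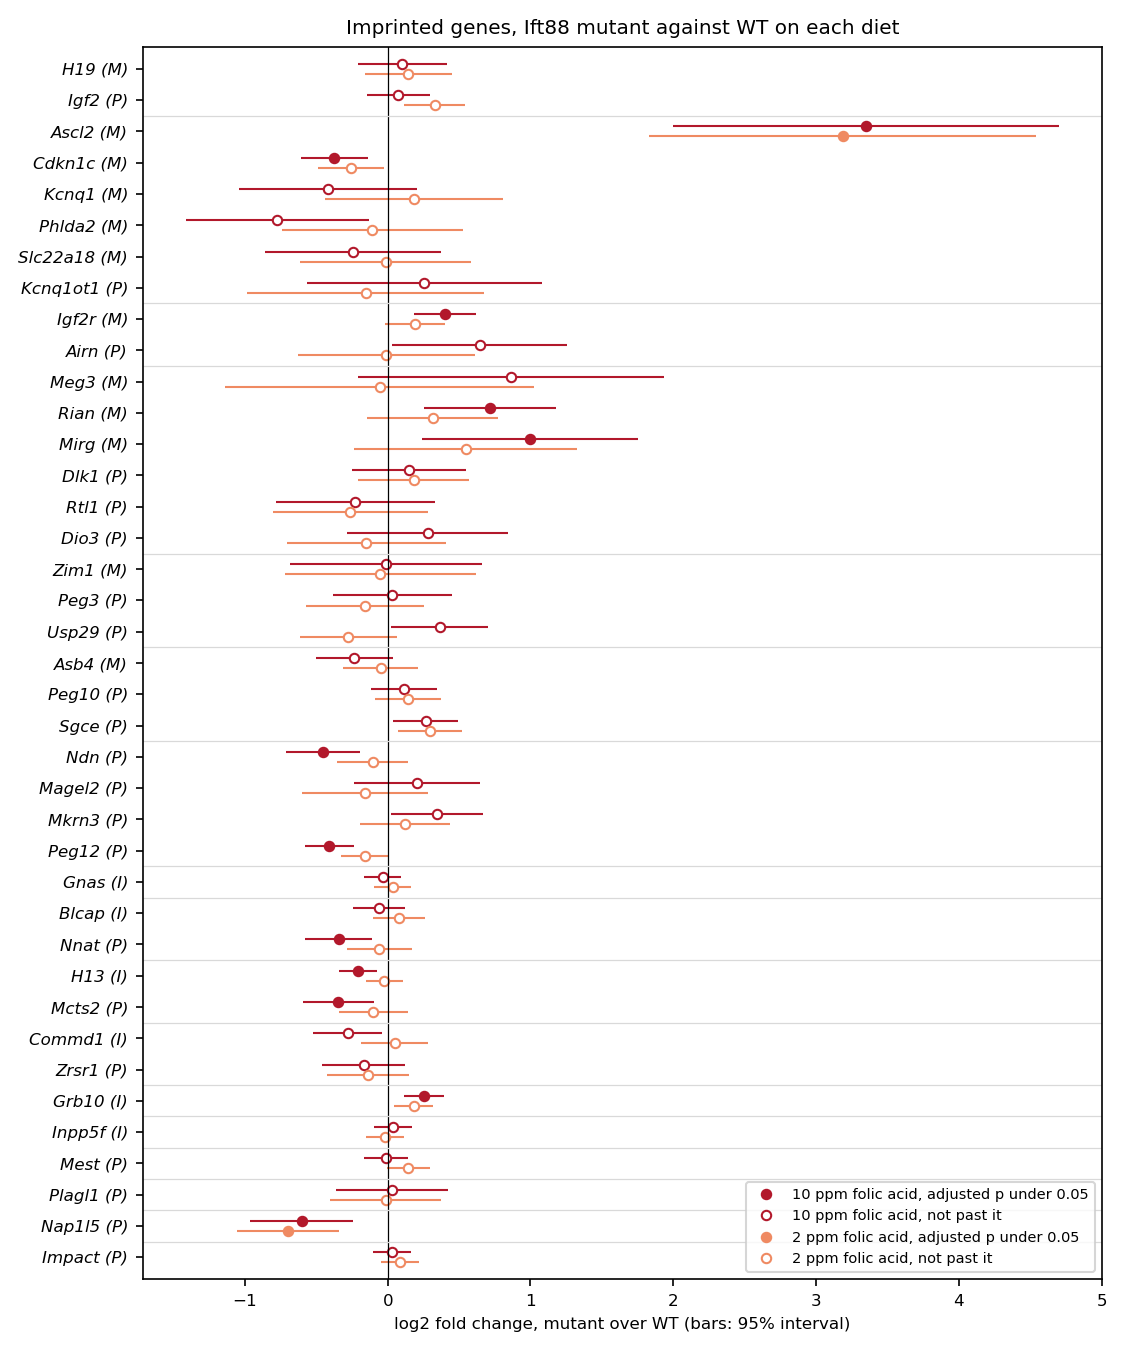
Log2 fold change of mutant over WT for 39 imprinted genes, grouped by cluster, on the enriched diet (10 ppm, upper mark) and the moderate diet (2 ppm, lower mark). Bars are 95% intervals, filled marks have an adjusted p under 0.05, and M, P and I mark maternally expressed, paternally expressed and isoform or tissue dependent genes. Ascl2 lies alone above 3, and most other genes lie within 1 of 0.

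Ascl2 had the largest change of the set. It encodes a maternally expressed basic helix-loop-helix factor required for the spongiotrophoblast of the placenta, and lies on chromosome 7 from 142966829 to 142969264 of mm10, at the edge of the Kcnq1 domain. Enriched mutant replicates 1 to 4 had 3.85, 4.63, 2.17 and 3.12 CPM, against 0.383, 0.322, 0.350 and 0.305 CPM in enriched WT heads. Moderate mutants had 3.42, 5.94, 0.344 and 3.24 CPM, against 0.384, 0.484, 0.0945 and 0.398 CPM in moderate WT heads. Thus 7 of 8 mutants exceeded every WT library, and moderate mutant replicate 3 lay within the WT range. The log2 fold change was 3.35 (SE 0.61, adjusted p = 0.00120) on the enriched diet, a 10.2-fold higher level in mutants, and 3.19 (SE 0.62, adjusted p = 0.00491) on the moderate diet, 9.10-fold. Even so, Ascl2 stayed at a mean of 1.13 CPM per kb over all libraries, low for the set. With limma-voom the moderate call ended (adjusted p = 0.109), as it did when the 3 libraries with contradicted labels were left out (log2 fold change 2.48, adjusted p = 0.205).

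Genes of hypoxia and glycolysis also rose, with 25 of the 26 listed called higher in mutants on each diet. Of all genes, 14.4% rose on the enriched diet and 4.79% on the moderate diet. Averaged over diets, Ndufa4l2 rose by 3.69 on the log2 scale, the secreted peptide gene Adm by 5.37, and the phosphofructokinase genes Pfkp by 2.37 and Pfkl by 0.69. Their summed level was 13830 to 17970 CPM in enriched mutants, 8355 to 10490 CPM in enriched WT heads, 11870 to 20170 CPM in moderate mutants and 7114 to 7773 CPM in moderate WT heads. Moderate mutant replicate 3, the mutant at the WT level of Ascl2, had the lowest such sum of the 8 mutants. Moderate mutant replicates 1 to 4 had sums of 16450, 20170, 11870 and 15720 CPM, with Ascl2 at 3.42, 5.94, 0.344 and 3.24 CPM. Enriched mutant replicates 1 to 4 had sums of 17970, 17130, 16170 and 13830 CPM, with Ascl2 at 3.85, 4.63, 2.17 and 3.12 CPM. The part of these genes in the Ascl2 result was not tested. Of the trophoblast and decidua markers, Tpbpa, which defines spongiotrophoblast, was at 0 in all 8 mutants, and Gcm1, which defines syncytiotrophoblast, was at 0.0677 CPM or less in enriched mutants and at 0 in moderate mutants. Genes of trophoblast giant cells were present in some enriched libraries: Prl3d1 was at 1.01 CPM in enriched mutant replicate 3 and 3.93 CPM in replicate 4, against 2.53 CPM in enriched WT replicate 2. Prl7a1 and Prl2c2 were at 5.18 and 0.982 CPM in enriched mutant replicate 4, against 1.53 and 1.13 CPM in enriched WT replicate 2, and all 3 genes were at 0.120 CPM or less in moderate mutants. In enriched mutants 11 of the 16 genes of the list had counts, against 14 in enriched WT heads, and 10 had counts in moderate mutants, against 11 in moderate WT heads. The part of these in the Ascl2 result was not tested. All 16 summed to 14.5 to 203.4 CPM in enriched mutants, 14.4 to 22.2 CPM in enriched WT heads, 12.6 to 16.4 CPM in moderate mutants and 16.5 to 16.7 CPM in moderate WT heads. The highest sum was that of enriched mutant replicate 3, which held 189 CPM of Prl8a2, a prolactin-family gene of decidua, and the lowest Ascl2 level of its group. Of the 5 tested genes of the list, Prl3b1 fell on each diet (log2 fold change -3.29 enriched, -1.79 moderate). Plac1 fell and Prl8a2 rose on the enriched diet, and Elf5 and Tfap2c did not pass. Prl8a2 had 0.204, 0.519, 189 and 3.45 CPM in enriched mutants, against 0.0610 to 0.201 CPM in enriched WT heads, so replicate 3 lay far above the rest.

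The remaining genes of the Kcnq1 domain did not share the rise of Ascl2. Cdkn1c, the maternally expressed inhibitor of cyclin-dependent kinases and brake on growth, lies on chromosome 7 from 143458339 to 143461050. It had 82.5, 107, 80.7 and 85.3 CPM in enriched mutants, against 121, 96.8, 127 and 128 CPM in enriched WT heads, and 93.6, 91.8, 96.7 and 85.6 CPM in moderate mutants, against 95.4, 105, 105 and 133 CPM in moderate WT heads. The groups overlapped on each diet. Cdkn1c fell by 0.37 on the log2 scale on the enriched diet (SE 0.11, adjusted p = 0.0153) and by 0.32 averaged over diets (SE 0.07, adjusted p = 0.00403), and the moderate change of -0.26 did not pass (adjusted p = 0.145). The enriched call ended without enriched mutant replicate 4 (adjusted p = 0.0545) or enriched WT replicate 3 (adjusted p = 0.0628). Phlda2, a maternally expressed regulator of placental growth, averaged 1.58 ± 0.394 CPM in enriched mutants and 2.48 ± 0.652 CPM in enriched WT heads (SD, n = 4 each), and its log2 fold change of -0.77 missed the threshold (adjusted p = 0.0532). Kcnq1, a potassium channel gene, and Slc22a18, a transporter gene, were under 1.5 CPM in every library and did not pass. Kcnq1ot1, the paternally expressed non-coding RNA that silences the domain in cis, ranged from 9.49 to 31.3 CPM in enriched mutants and from 6.81 to 20.0 CPM in enriched WT heads. It did not pass on either diet, and 3.0% of the exon bases of Kcnq1 lie antisense to it.

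In the insulin-like growth factor pathway, Igf2r and Grb10 rose. Igf2r, the maternally expressed receptor that clears IGF2 from the cell surface, lies on chromosome 17 from 12682406 to 12769664. Its level was 295, 314, 291 and 327 CPM in enriched mutants, against 201, 271, 205 and 247 CPM in enriched WT heads, with no overlap. Moderate mutants had 272, 255, 294 and 330 CPM, against 264, 234, 257 and 253 CPM in moderate WT heads, which overlapped. Igf2r had a log2 fold change of 0.40 on the enriched diet (SE 0.10, adjusted p = 0.00658), 0.30 averaged over diets (SE 0.07, adjusted p = 0.00372) and 0.19 on the moderate diet (adjusted p = 0.249). Airn, the paternally expressed antisense RNA that silences Igf2r in cis, starts within Igf2r and had 2.07 to 4.06 CPM in enriched mutants and 1.14 to 2.23 CPM in enriched WT heads. Its log2 fold change of 0.65 on the enriched diet did not pass (adjusted p = 0.0880). The ratio of Igf2r to Airn averaged 120 ± 27.3 in enriched mutants, 135 ± 31.2 in enriched WT heads, 145 ± 26.5 in moderate mutants and 124 ± 26.9 in moderate WT heads (SD, n = 4 each), a description in which every group overlapped.

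Grb10 lies on chromosome 11 from 11930508 to 12038683 and is expressed from the maternal allele in most tissues and from the paternal allele in neurons. It had 1842, 2065, 1940 and 1854 CPM in enriched mutants, against 1498, 1723, 1518 and 1669 CPM in enriched WT heads. Moderate mutants had 1854, 1880, 1914 and 1990 CPM, against 1652, 1713, 1631 and 1736 CPM in moderate WT heads. All 8 mutants lay above all 8 WT libraries, while the difference was modest, at a log2 fold change of 0.26 enriched (SE 0.06, adjusted p = 0.00733), 0.18 moderate (adjusted p = 0.0855) and 0.22 averaged over diets (SE 0.04, adjusted p = 0.00146). The enriched call ended when the enriched libraries were fitted alone (adjusted p = 0.0506).

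Igf2 itself, on chromosome 7 from 142650766 to 142666816, had 904, 1017, 865 and 723 CPM in enriched mutants, against 800, 851, 773 and 893 CPM in enriched WT heads. Moderate mutants had 917, 844, 1082 and 898 CPM, against 736, 699, 743 and 802 CPM in moderate WT heads. On the moderate diet every mutant exceeded every WT head and the log2 fold change of 0.33 just missed the threshold (adjusted p = 0.0512), whereas the enriched groups overlapped. Averaged over diets, Igf2 rose by 0.20 (SE 0.07, adjusted p = 0.0342), a call that ended without enriched mutant replicate 2 (adjusted p = 0.0634), without the 3 libraries with contradicted labels (adjusted p = 0.0815) and with sex read from counts (adjusted p = 0.0552). H19, transcribed from the other parental allele of the same control region, averaged 1222 ± 281 CPM in enriched mutants, 1148 ± 97.2 CPM in enriched WT heads, 1116 ± 190 CPM in moderate mutants and 1010 ± 23.3 CPM in moderate WT heads (SD, n = 4 each). It did not pass on either diet. The ratio of H19 to Igf2 averaged 1.39 ± 0.191 in enriched mutants, 1.38 ± 0.0698 in enriched WT heads, 1.19 ± 0.112 in moderate mutants and 1.36 ± 0.0695 in moderate WT heads (SD, n = 4 each).

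Nap1l5, a paternally expressed intronless gene of the nucleosome assembly protein family, fell on each diet. It lies on chromosome 6 from 58905233 to 58907076. Enriched mutants had 1.92, 1.95, 1.91 and 2.51 CPM, against 3.35, 2.89, 2.98 and 3.54 CPM in enriched WT heads. Moderate mutants had 1.91, 2.25, 1.78 and 1.64 CPM, against 3.36, 2.61, 2.74 and 3.48 CPM in moderate WT heads. All 8 mutants lay below all 8 WT libraries. Nap1l5 had a log2 fold change of -0.60 enriched (SE 0.16, adjusted p = 0.0119), -0.70 moderate (SE 0.16, adjusted p = 0.0151) and -0.65 averaged over diets (SE 0.11, adjusted p = 0.000530), or 1.57-fold lower in mutants. The averaged call held in all 26 alternatives. The moderate call ended without moderate mutant replicate 1 or 4 or moderate WT replicate 1 or 4 (adjusted p = 0.0526 to 0.0635), without the 3 libraries with contradicted labels (adjusted p = 0.121) and with the moderate libraries alone (adjusted p = 0.0586), and the enriched call without enriched mutant replicate 2 (adjusted p = 0.0527).

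In the Prader-Willi cluster on chromosome 7, Peg12 and Ndn fell in enriched mutants while their neighbours Magel2 and Mkrn3 did not pass in either direction. Peg12, an intronless gene of the FRAT family of Wnt pathway proteins, lies from 62461871 to 62464510. It had 67.1, 58.2, 78.6 and 64.0 CPM in enriched mutants, against 86.9, 84.9, 93.4 and 86.2 CPM in enriched WT heads, and 80.5, 81.7, 84.0 and 75.6 CPM in moderate mutants, against 85.6, 88.3, 91.5 and 93.7 CPM in moderate WT heads. Mutants lay below WT heads on each diet without overlap. The log2 fold change was -0.41 enriched (SE 0.08, adjusted p = 0.00174), -0.16 moderate (adjusted p = 0.226) and -0.28 averaged over diets (SE 0.06, adjusted p = 0.00108).

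Ndn, which encodes necdin, a MAGE family protein of postmitotic neurons, lies from 62346569 to 62350262. It had 124, 108, 127 and 92.6 CPM in enriched mutants, against 166, 144, 161 and 130 CPM in enriched WT heads, with no overlap. Moderate mutants had 128, 150, 149 and 105 CPM, against 142, 153, 133 and 146 CPM in moderate WT heads, which overlapped. The log2 fold change was -0.45 enriched (SE 0.12, adjusted p = 0.00909) and -0.28 averaged over diets (SE 0.08, adjusted p = 0.0142). Magel2, a further MAGE gene, had 6.83 to 12.97 CPM in enriched mutants and 5.67 to 9.06 CPM in enriched WT heads. Mkrn3, a makorin zinc finger gene, had 11.72 to 15.3 CPM in enriched mutants and 9.26 to 11.69 CPM in enriched WT heads, and its log2 fold change of 0.35 did not pass (adjusted p = 0.0811).

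**Figure D3:**
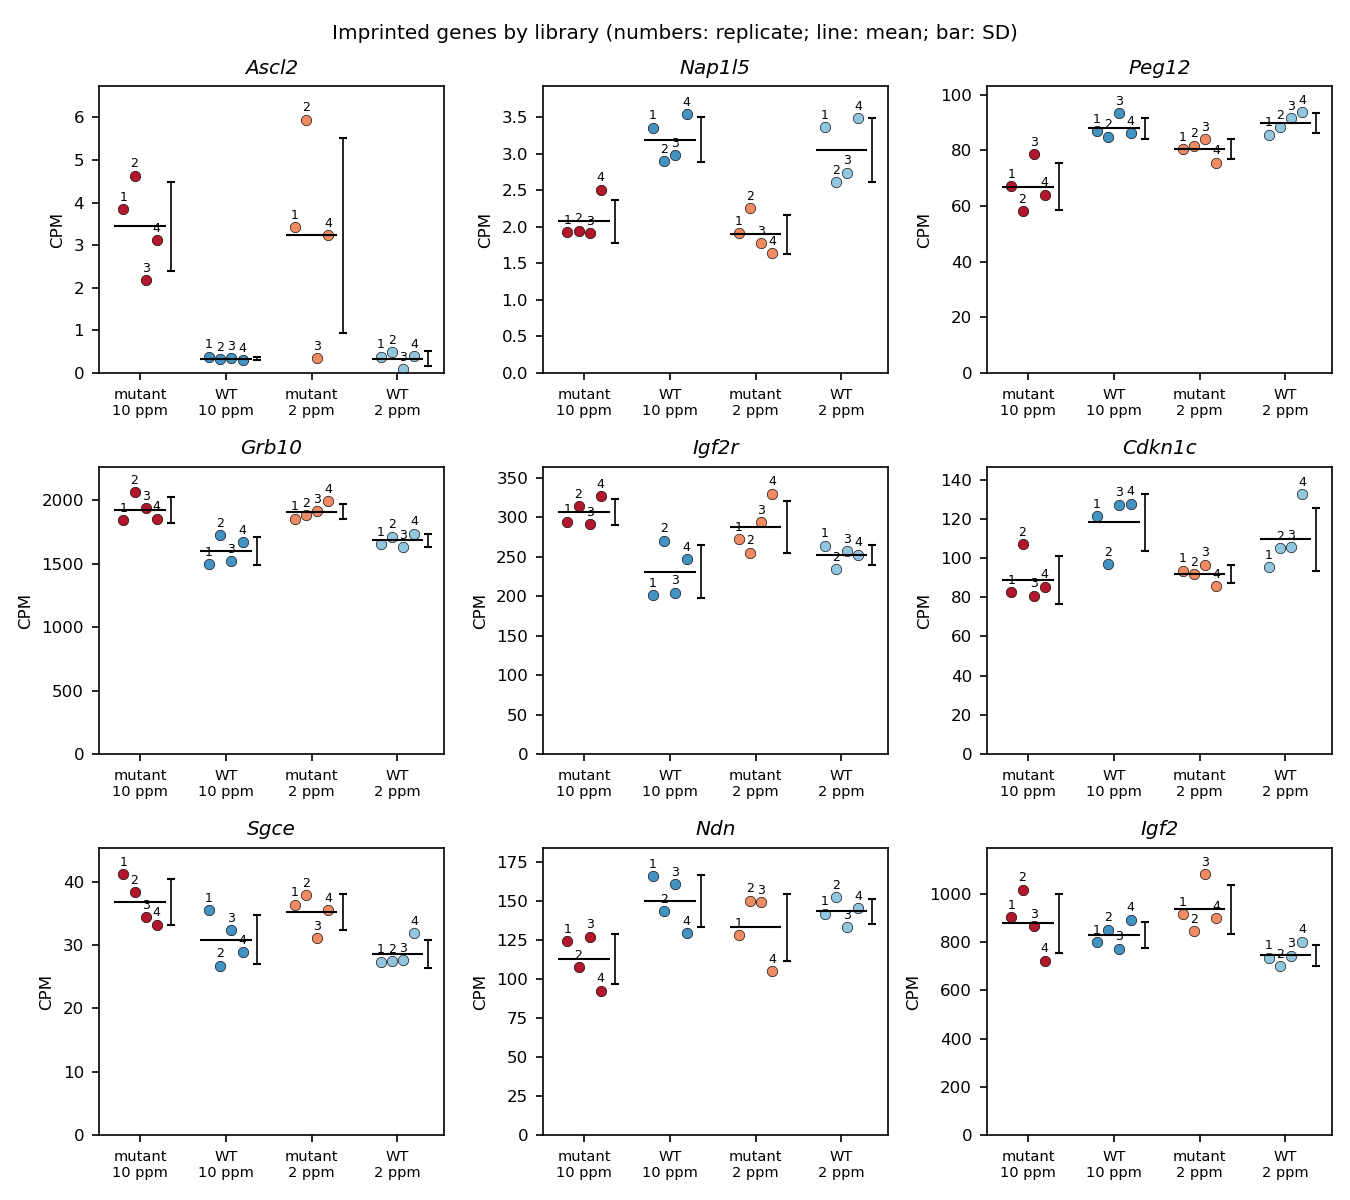
CPM of 9 imprinted genes in each library, by group in the order enriched mutant, enriched WT, moderate mutant and moderate WT. Numbers are replicates, lines are means and bars are SDs of 4 libraries. For Nap1l5, Peg12 and Grb10 the 8 mutants and 8 WT heads do not overlap, and moderate mutant replicate 3 lies at the WT level of Ascl2.

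On chromosome 2, Nnat, H13 and Mcts2 fell on the enriched diet by small amounts. Nnat lies from 157560078 to 157562522, within an intron of Blcap. It had 338, 361, 301 and 361 CPM in enriched mutants, against 456, 358, 473 and 487 CPM in enriched WT heads, and 405, 375, 382 and 363 CPM in moderate mutants, against 337, 397, 363 and 486 CPM in moderate WT heads. The groups overlapped on each diet. The log2 fold change was -0.34 enriched (SE 0.11, adjusted p = 0.0227) and -0.20 averaged over diets (SE 0.07, adjusted p = 0.0445). The enriched call ended without enriched mutant replicate 2 or 3 or enriched WT replicate 1, 3 or 4 (adjusted p = 0.0502 to 0.0866) and without the 3 libraries with contradicted labels (adjusted p = 0.0527). The averaged call ended in 19 of 26 alternatives, 13 of them single libraries left out (adjusted p = 0.0564 to 0.148), and without the 3 libraries its adjusted p was 0.184. Without moderate WT replicate 4 the averaged value was -0.11. Blcap, whose imprinting is limited to brain isoforms, had a level of 45.1 to 56.8 CPM in every library and did not pass.

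H13, a signal peptide peptidase gene at 152669461 to 152708670, had 84.5, 83.2, 81.9 and 83.6 CPM in enriched mutants, against 104, 87.5, 95.8 and 100 CPM in enriched WT heads. Moderate mutants had 89.5, 94.3, 87.3 and 86.1 CPM, against 93.3, 91.9, 89.5 and 88.3 CPM in moderate WT heads. The enriched groups did not overlap and the moderate ones did, and the log2 fold change was -0.21 enriched (SE 0.06, adjusted p = 0.0171) and -0.11 averaged over diets (SE 0.04, adjusted p = 0.0432). Leaving out enriched mutant replicate 2 or 3 or enriched WT replicate 1 or 3 ended the enriched call (adjusted p = 0.0525 to 0.0844), and so did 3 other alternatives, with an adjusted p of 0.0507 without the 3 libraries with contradicted labels and of up to 0.115. The averaged call ended in 21 of 26 alternatives, 15 of them single libraries left out (adjusted p = 0.0548 to 0.167), and without the 3 libraries its adjusted p was 0.149.

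Mcts2, at 152687035 to 152687946 within an intron of H13, is a paternally expressed retrogene copy of the X-linked Mcts1, so reads shared with that copy make its count uncertain. Enriched mutants had 16.8, 16.4, 16.7 and 14.1 CPM, against 25.1, 17.9, 20.2 and 17.6 CPM in enriched WT heads. Moderate mutants had 16.5, 19.5, 18.7 and 17.2 CPM, against 20.5, 18.6, 18.8 and 19.1 CPM in moderate WT heads. The enriched groups did not overlap, and the log2 fold change was -0.35 enriched (SE 0.11, adjusted p = 0.0289) and -0.22 averaged over diets (SE 0.08, adjusted p = 0.0366). The enriched call ended when any of 10 libraries was left out, namely each enriched mutant, enriched WT replicate 1 or 3, moderate mutant replicate 1 and moderate WT replicate 1, 3 or 4 (adjusted p = 0.05003 to 0.117), and without enriched WT replicate 1 the value was -0.21. The averaged call ended in 17 of 26 alternatives, 13 of them single libraries left out (adjusted p = 0.0516 to 0.124). Without the 3 libraries with contradicted labels the adjusted p was 0.0606 enriched and 0.126 averaged. Gnas, also on chromosome 2, had 1228 to 1400 CPM in enriched mutants and 1276 to 1444 CPM in enriched WT heads and did not pass.

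In the Peg10 cluster on chromosome 6, Sgce rose. Sgce encodes epsilon-sarcoglycan, is paternally expressed and lies from 4674350 to 4747207. It had 41.3, 38.4, 34.4 and 33.3 CPM in enriched mutants, against 35.5, 26.8, 32.4 and 28.9 CPM in enriched WT heads, and 36.4, 37.9, 31.2 and 35.5 CPM in moderate mutants, against 27.4, 27.5, 27.6 and 31.9 CPM in moderate WT heads. The groups overlapped on each diet. Sgce had a log2 fold change of 0.28 averaged over diets (SE 0.07, adjusted p = 0.00696), and neither diet alone passed (0.27, adjusted p = 0.0621 enriched, and 0.30, adjusted p = 0.0835 moderate). The call ended without the 3 libraries with contradicted labels (0.24, adjusted p = 0.0889). Peg10, whose start lies next to that of Sgce on the opposite strand, had 610 to 922 CPM over all libraries and did not pass, nor did Asb4, a maternally expressed gene of the ankyrin repeat and SOCS box family, at 26.9 to 45.5 CPM.

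The Peg3 and Commd1 clusters, and Mest, Plagl1, Inpp5f and Impact, held no call between genotypes. In the Peg3 cluster, Peg3, a zinc finger gene linked to growth and maternal behaviour, had 230 to 382 CPM in enriched mutants and 210 to 406 CPM in enriched WT heads, and Zim1 and Usp29 were at 6 CPM or less in every library. Mest had 1813 to 2115 CPM in enriched mutants and 1867 to 1946 CPM in enriched WT heads. Plagl1, a zinc finger factor of the imprinted growth network, had 84.3 to 134 CPM in enriched mutants and 80.6 to 143 CPM in enriched WT heads. Commd1, a copper metabolism gene, Zrsr1, a splicing factor retrogene in an intron of Commd1, Inpp5f, a phosphoinositide phosphatase gene, and Impact, a regulator of translation, also did not pass on either diet. Commd1 had a log2 fold change of -0.28 on the enriched diet (adjusted p = 0.0594), and Impact had 77.4 to 96.1 CPM in enriched mutants and 77.7 to 90.2 CPM in enriched WT heads.

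The Dlk1-Dio3 domain on chromosome 12 showed 1 library far from all others. Its maternally expressed non-coding RNAs Meg3, Rian and Mirg, which lie in the same direction and host small RNAs, were highest in enriched mutant replicate 4. Meg3, from 109541001 to 109571726, had 27.9, 33.5, 21.7 and 202 CPM in enriched mutants, against 27.4, 35.2, 27.2 and 62.2 CPM in enriched WT heads. Moderate mutants had 40.1, 19.5, 26.5 and 45.0 CPM, against 32.0, 29.6, 38.6 and 34.6 CPM in moderate WT heads. Meg3 was not called on either diet (adjusted p = 0.186 enriched and 0.962 moderate).

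Rian, from 109603940 to 109661716, had 92.7, 90.8, 88.2 and 218 CPM in enriched mutants, against 80.4, 72.0, 66.6 and 87.1 CPM in enriched WT heads. Moderate mutants had 90.7, 86.1, 82.7 and 98.1 CPM, against 68.9, 77.1, 67.1 and 73.2 CPM in moderate WT heads. On each diet every mutant exceeded every WT head. The log2 fold change was 0.71 enriched (SE 0.21, adjusted p = 0.0177), 0.32 moderate (adjusted p = 0.387) and 0.51 averaged over diets (SE 0.15, adjusted p = 0.0133). Without enriched mutant replicate 4 the enriched value was 0.25 (adjusted p = 0.0655) and the averaged value 0.28, which kept its call (adjusted p = 0.00298). The enriched call also ended without enriched WT replicate 3 (0.67, adjusted p = 0.0511).

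Mirg, from 109729764 to 109749460, had 6.41, 5.23, 3.50 and 17.3 CPM in enriched mutants, against 3.26, 3.74, 3.48 and 6.83 CPM in enriched WT heads. Moderate mutants had 5.19, 3.36, 4.64 and 5.88 CPM, against 3.02, 2.42, 4.91 and 3.08 CPM in moderate WT heads. The groups overlapped. Its log2 fold change was 0.99 enriched (SE 0.34, adjusted p = 0.0376) and 0.77 averaged over diets (SE 0.25, adjusted p = 0.0236). Without enriched mutant replicate 4 these were 0.38 (adjusted p = 0.346) and 0.45 (adjusted p = 0.0824), and the enriched call ended in 9 of 27 alternatives, among them without enriched mutant replicate 1 or enriched WT replicate 1 or 3 (adjusted p = 0.0625 to 0.102). The averaged call also ended with no sex covariate (adjusted p = 0.0578).

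The paternally expressed genes of the domain did not set that library apart to the same degree. Dlk1, a membrane protein related to Notch ligands, had 186, 209, 190 and 240 CPM in enriched mutants, against 183, 141, 224 and 224 CPM in enriched WT heads. Rtl1, a retrotransposon-derived gene of placental vessels, had 0.974, 1.21, 1.802 and 2.57 CPM in enriched mutants, against 2.20, 1.69, 1.69 and 2.26 CPM in enriched WT heads, and 8.4% of its exon bases carry microRNA genes, most of them antisense. Dio3, the enzyme that inactivates thyroid hormone, had 3.49, 2.68, 2.44 and 1.90 CPM in enriched mutants, against 2.20, 1.77, 2.54 and 2.04 CPM in enriched WT heads. None of the 3 passed on either diet.

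Beside these values, enriched mutant replicate 4 held 57.7 CPM of Afp, against 9.26 CPM or less in the other 15 libraries, 26.5 CPM of Apob, against 9.51 CPM or less, and 18.4 CPM of Cubn, against 4.496 CPM or less. These are markers of visceral and yolk sac endoderm. Of the 12 tested genes of that list, Sox7, which endothelium also expresses, rose on each diet and the other 11 did not pass. Afp had a log2 fold change of 2.56 averaged over diets (adjusted p = 0.0880), Rbp4 of 0.60 (adjusted p = 0.115) and Apoa4 of 1.98 (adjusted p = 0.127). The same library had the lowest summed level of 14 erythroid genes, 732 CPM, against 1264 to 6594 CPM in the others, and the highest share of reads outside annotated features, 16.96%. Enriched WT replicate 4, the WT head with the highest Meg3 and Mirg, came next in that share at 16.76%, with a yolk sac sum of 30.3 CPM. The part of these in the Dlk1-Dio3 values was not tested.

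**Figure D4:**
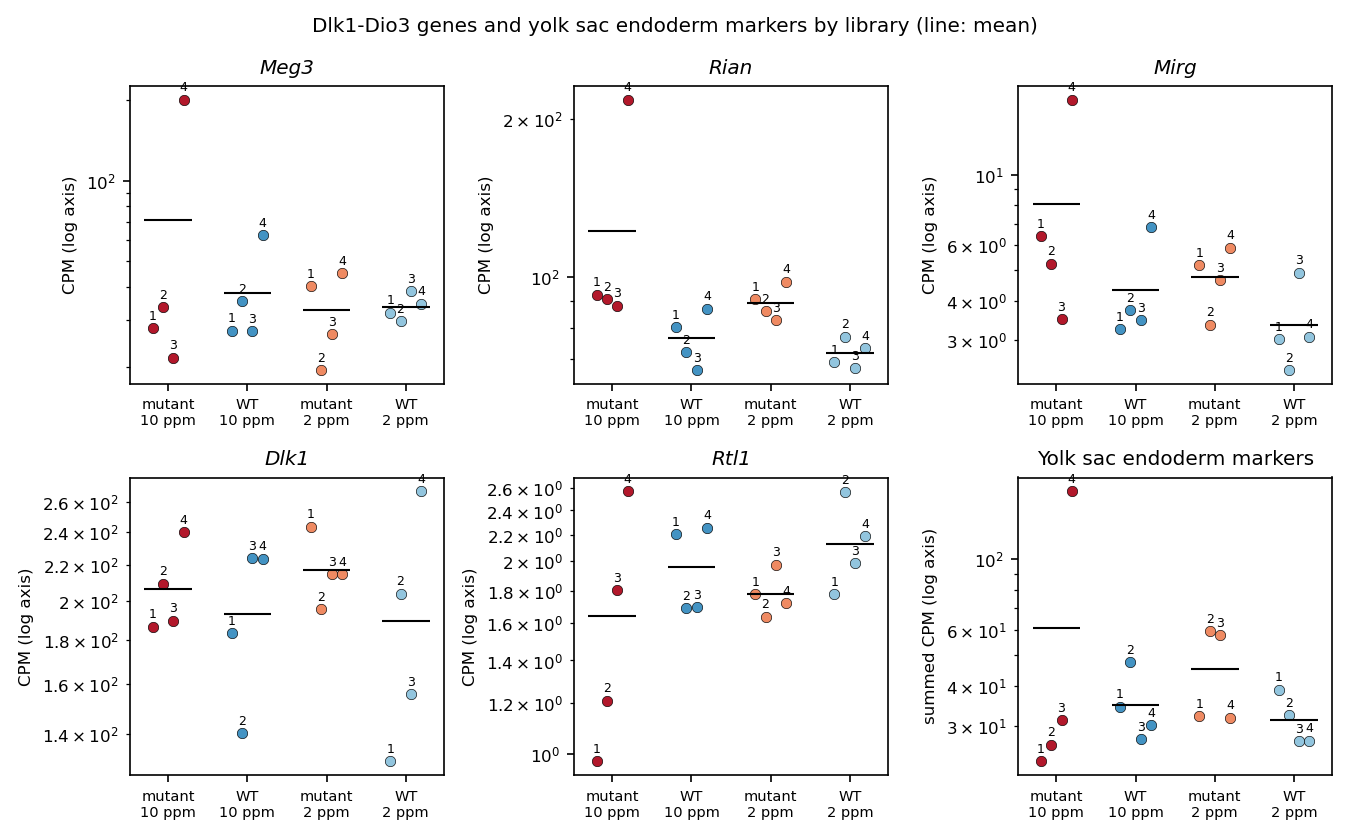
CPM of 5 genes of the Dlk1-Dio3 domain and the summed CPM of 14 yolk sac endoderm markers in each library, on log axes, by group. Numbers are replicates and lines are means. Enriched mutant replicate 4 lies apart for Meg3 (202 CPM), Rian (218), Mirg (17.3) and the marker sum (162.9), and within or near the spread of the others for Dlk1 and Rtl1.

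Split by expressed allele, 4 of 12 maternally expressed genes rose and 1 fell on the enriched diet, or 41.7% called, with a median log2 fold change of 0.05 over the 12. Of 21 tested paternally expressed genes, 0 rose and 5 fell there, or 23.8% called, with a median of 0.03, and 9 or 42.9% had an unadjusted p under 0.05. Of all genes 31.2% were called on that diet, 14.4% higher and 16.8% lower in mutants, and 42.9% had an unadjusted p under 0.05. On the moderate diet 1 of 12 maternally expressed genes rose and 1 of 21 paternally expressed genes fell, with medians of 0.07 and -0.10, where 7.62% of all genes were called. Averaged over diets, 4 of 12 maternally expressed genes rose and 1 fell, or 41.7% called. Of the 21 paternally expressed genes, 2, Sgce and Igf2, rose and 5 fell, or 33.3% called. In that contrast 35.8% of all genes were called, 17.4% higher and 18.5% lower in mutants. The classes were not tested against each other, and of the 4 maternally expressed genes that rose on the enriched diet, Rian and Mirg share a domain and rested on enriched mutant replicate 4.

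Between diets, no imprinted gene passed in either genotype with edgeR, DESeq2 or limma-voom, and edgeR called 0 of 14514 genes or 0% in every diet contrast. At an unadjusted p under 0.05, 1 of 39 imprinted genes differed between diets in WT heads, 2 in mutants and 2 averaged over genotype, among 354, 1565 and 526 of all genes. DESeq2 called 1 gene of the whole table in WT heads, 3 in mutants and 1 averaged over genotype, none of them in the set, and limma-voom called 0. In mutants, the 3 smallest unadjusted p-values were those of Peg12, Mest and Usp29. Peg12 averaged 67.0 ± 8.55 CPM in enriched mutants and 80.4 ± 3.56 CPM in moderate mutants (SD, n = 4 each), a log2 fold change of -0.25 (SE 0.08, adjusted p = 0.442). Mest had 1813, 1834, 2115 and 1866 CPM in enriched mutants, against 2157, 2458, 2200 and 2073 CPM in moderate mutants, a difference of -0.20 (SE 0.07, adjusted p = 0.442). Usp29, a ubiquitin protease gene, had 4.26, 5.84, 4.08 and 5.01 CPM in enriched mutants, against 3.28, 3.36, 3.89 and 4.32 CPM in moderate mutants, a difference of 0.33 (SE 0.16, adjusted p = 0.464). Each of these pairs of groups overlapped.

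In WT heads the smallest unadjusted p-values were those of Phlda2, with 2.40, 3.22, 2.66 and 1.65 CPM in enriched WT heads, against 1.54, 1.40, 1.75 and 2.49 CPM in moderate WT heads (log2 fold change 0.64, SE 0.30, adjusted p = 0.967), of Usp29 (-0.31, SE 0.16, adjusted p = 0.967) and of Commd1 (0.20, SE 0.11, adjusted p = 0.967). All overlapped. Averaged over genotype they were those of Mest (-0.13, SE 0.05), Peg12 (-0.13, SE 0.06) and Peg10 (-0.15, SE 0.08), each with an adjusted p of 0.997. Averaged over genotype, the 95% intervals of 30 of 39 imprinted genes lay within a 1.5-fold difference between diets and those of 37 within a 2-fold difference. In WT heads alone and in mutants alone, 24 lay within 1.5-fold and 34 within 2-fold. The widest intervals were those of scarce or scattered genes such as Ascl2 in WT heads (-1.83 to 1.71) and Meg3, for which larger diet differences were not detectable here. H19 had an interval of -0.17 to 0.48 on the log2 scale between enriched and moderate WT heads, and Igf2 one of -0.06 to 0.40.

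**Figure D5:**
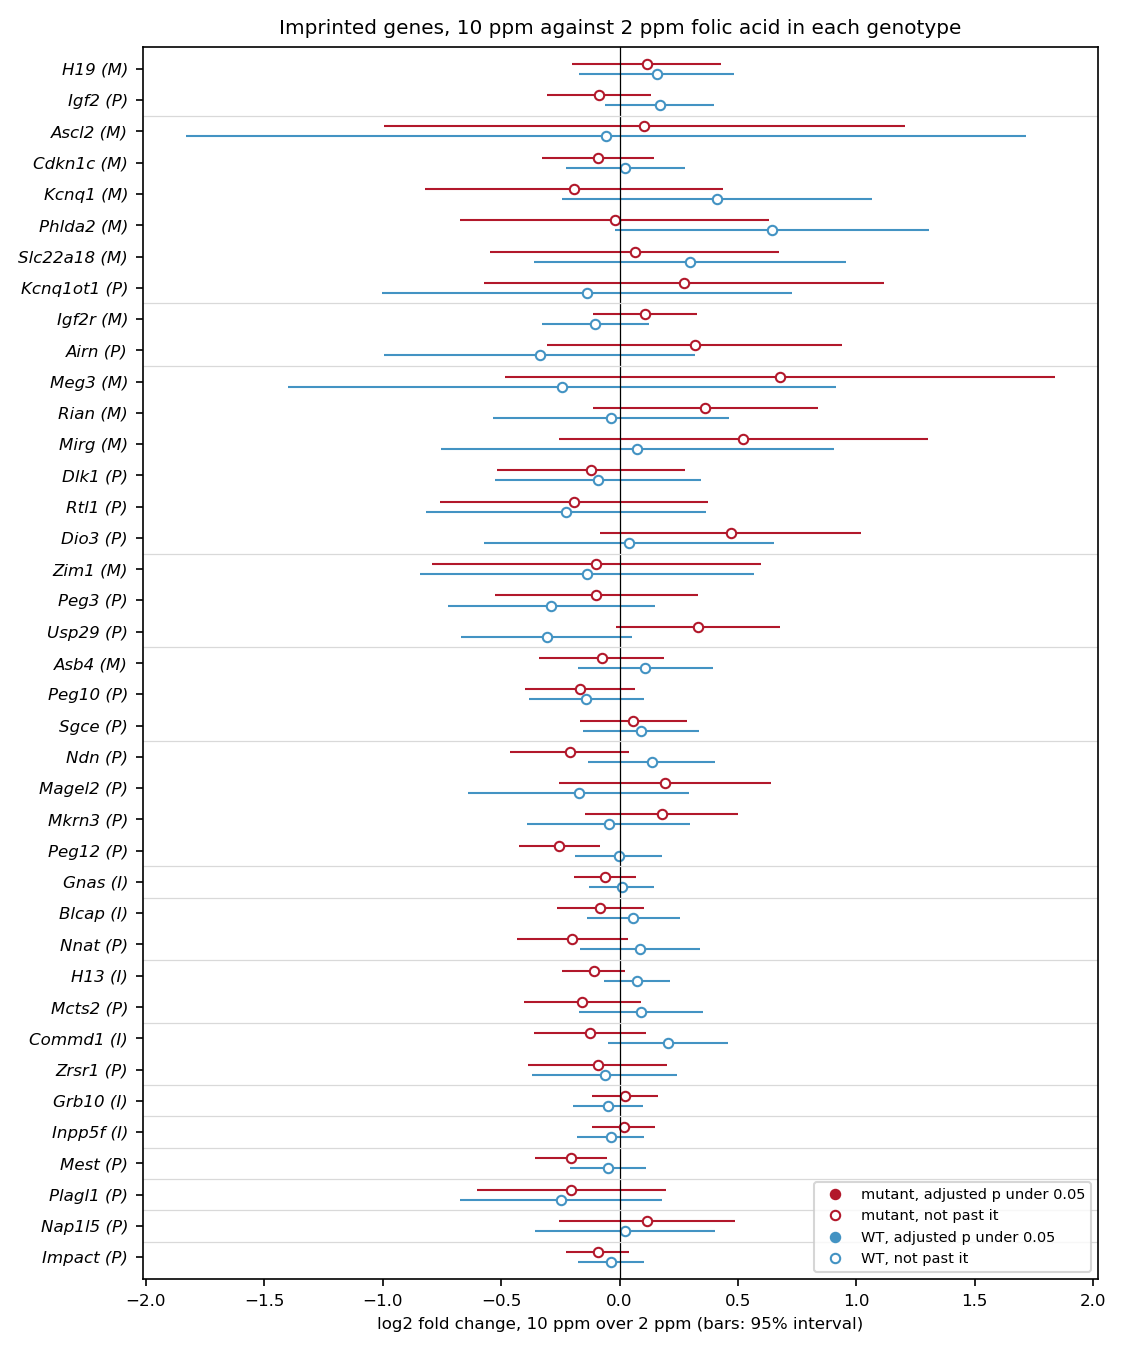
Log2 fold change of the enriched (10 ppm) over the moderate diet (2 ppm) for 39 imprinted genes, in mutants (upper mark) and WT heads (lower mark), with 95% intervals. M, P and I are as in the plot of genotype changes. No mark is filled, since no adjusted p was under 0.05, and the intervals of Ascl2 and Meg3 are the widest.

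The genotype effect was also compared between diets within the model. No imprinted gene passed this interaction, and 0 of 14514 genes or 0% did with edgeR, DESeq2 or limma-voom, while 5 imprinted genes and 1401 of all genes had an unadjusted p under 0.05. The 12 enriched calls against 2 moderate calls are therefore not shown to differ between diets. Usp29 had the smallest p, with a difference of 0.64 between the log2 fold changes of 0.36 enriched and -0.28 moderate (SE 0.22, adjusted p = 0.502). Peg12 followed at -0.25 (SE 0.11, adjusted p = 0.502) and Commd1 at -0.33 (SE 0.15, adjusted p = 0.502), and H13 and Ndn were the other 2 at an unadjusted p under 0.05. For Ascl2 the genotype effect was nearly of the same size on each diet (3.35 enriched and 3.19 moderate).

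Of 27 listed genes of imprint maintenance and DNA methylation, 21 were tested. The list also holds genes that act against methylation, such as the Tet genes. On the enriched diet 2 rose and 3 fell in mutants, on the moderate diet 1 rose, and averaged over diets 2 rose and 4 fell. These were 23.8%, 4.76% and 28.6% of the 21, below the 31.2%, 7.62% and 35.8% of all genes called in the same contrasts. Tet1, an enzyme that oxidises methylcytosine, rose on each diet and averaged 116 ± 14.3 CPM in enriched mutants, 55.2 ± 10.1 CPM in enriched WT heads, 101 ± 27.7 CPM in moderate mutants and 62.8 ± 6.65 CPM in moderate WT heads (SD, n = 4 each). Its log2 fold change was 1.09 enriched (adjusted p = 0.000543) and 0.69 moderate (adjusted p = 0.0230). Tet2 rose on the enriched diet (1.26, adjusted p = 0.0141) and the moderate change of 0.62 did not pass. Trim28, the corepressor at imprints, fell on the enriched diet (-0.38, adjusted p = 0.00127), with 1180 ± 74.3 CPM in enriched mutants and 1508 ± 109 CPM in enriched WT heads (SD, n = 4 each). Dnmt3b, a de novo methyltransferase, fell on the enriched diet as well (-0.56, adjusted p = 0.00411), and Mbd3 by 0.22 (adjusted p = 0.0275). Zfp57 did not pass on either diet. Enriched mutant replicate 4, the library highest in Meg3, Rian and Mirg, held 41.4 CPM of Zfp57, against 7.54 to 17.6 CPM in the other libraries. The part of Zfp57 in those values was not tested. Dnmt1 averaged 540 ± 39.99 CPM in enriched mutants and 484 ± 49.6 CPM in enriched WT heads (SD, n = 4 each) with no call. Dppa3, the factor that protects the maternal genome in the egg, was at 0 counts in every library. None of the 21 passed a diet contrast.

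A further 46 imprinted genes outside the set, of which 37 were tested, gave 7 that rose and 9 that fell on the enriched diet and 5 that rose and 3 that fell on the moderate diet. They came to 43.2% on the enriched diet, where 31.2% of all genes were called, and 21.6% on the moderate diet, where 7.62% were, and these shares were not tested against each other. Sfmbt2, a paternally expressed Polycomb gene of extraembryonic tissue, rose on each diet (log2 fold change 1.76 enriched, adjusted p = 0.000120, and 1.25 moderate, adjusted p = 0.00256). Peg13, a non-coding RNA, fell on each (-0.69, adjusted p = 7.76e-05, and -0.35, adjusted p = 0.0113). Ano1, a chloride channel gene, rose by 0.83 enriched and 0.53 moderate, and Copg2, the antisense neighbour of Mest, by 0.39 and 0.27. Their medians were 0.02 enriched and -0.04 moderate, near those of all genes. Of the markers of other cell types, 4 of 12 tested erythroid genes fell on the enriched diet, and 1, Epor, on the moderate diet. Averaged over diets, Epor fell by 1.00, Tal1 by 0.89, Klf1 by 1.502 and Rhag by 1.31 on the log2 scale. Of 14 endothelial genes 2 rose, Flt1 and Pecam1, and 6 fell on the enriched diet, and the first 2 rose on the moderate diet. Cldn5 and Etv2 fell by 0.73 and 1.38 averaged over diets. Of 8 tested heart genes Gata4 rose and Tbx5 fell on each diet, Myh7 fell by 1.42 averaged over diets, and Myh6 did not pass. Of 17 tested head and neural tube genes, Tfap2a and Sox2 rose on the enriched diet and none passed on the moderate diet, and Hes5 and Rax passed in neither.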

How the data were processed

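Per the labels' protocols, head RNA was turned into libraries by a TruSeq version 2 protocol, without strand information. Per the submitters' processing notes, the tools were FastQC 0.11.5, TopHat2 2.1.1, SAMtools 1.8, HTSeq 0.9.1 and DESeq2 1.22.2, with build mm10. The sources used here do not state the annotation or the counting options. As deposited, the files hold the authors' raw counts per gene symbol for 24421 genes, and the 5 summary lines of HTSeq were left out.

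A gene was tested if 4 or more libraries had 10 or more counts of it, which left 14514. Counts were scaled by trimmed means of M values and tested with the quasi-likelihood test of edgeR 4.0.16 (limma 3.58.1, R 4.3.3) fitted to the 16 libraries together, 1 term per group plus labelled sex. The sex label was used as given, also for the 3 libraries whose sex-linked counts contradicted it. From this fit 7 contrasts were drawn, namely genotype on each diet and averaged, diet in each genotype and averaged, and their interaction. P-values were adjusted by the Benjamini-Hochberg method over all genes tested, and the standard error is the log2 fold change divided by the root of F. Intervals use the 11 residual degrees of freedom. No pair of libraries was identical. The procedure was tested on simulated data.

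Named genes are those past the threshold between genotypes, the 3 with the smallest p in each diet contrast, and the 4 with the smallest p of each further list averaged over diets. Other genes named from those lists were chosen after their values were seen. The members and lists were chosen with earlier results of these data known. Positions and exon lengths are those of GENCODE vM21 on mm10, matched by symbol for all 41 genes, which may differ from the annotation behind the counts. Alternatives were median-of-ratios scaling, DESeq2 1.42.0, limma-voom, no filter or a filter on CPM, no sex covariate or sex read from counts, the replicate number as block, the compared groups alone, leaving out the 3 libraries with contradicted labels, and leaving out each library. Leaving out enriched mutant replicate 4 with moderate mutant replicate 3 was added after the data were seen.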

Additional observations from a re-analysis of the deposited data

Results flagged for a closer look

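In 156 groups of 4 libraries, 1 for each tested gene and group, 6 held a library far outside the other 3. Chance alone flags about 1 group in 20, and 3 of the 6 came from 1 library, enriched mutant replicate 4. There, Meg3 was at 201.59 CPM (the other enriched mutants at 21.7 to 33.5), Rian at 217.71 CPM (88.2 to 92.7) and Nap1l5 at 2.5063 CPM (1.91 to 1.95). In enriched WT replicate 4, Mirg was at 6.8315 CPM, against 3.26 to 3.74 CPM in the other 3. In moderate WT replicate 4, Sgce was at 31.883 CPM (27.4 to 27.6 in the others) and Inpp5f was lowest at 67.149 CPM (70.8 to 71.3).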

How the results depend on the processing

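The count of imprinted genes called between genotypes on the moderate diet, 2, was 4 with DESeq2 (10.8% of all genes called), 1 with limma-voom (6.55%), 0 without the 3 libraries with contradicted sex labels (0.726%), 5 without enriched mutant replicate 4 and moderate mutant replicate 3 together (17.6%), and 1 to 4 when each library was left out (3.71% to 14.6%). The enriched count of 12 ranged from 6 to 15 over the libraries left out (20.9% to 33.6% of all genes). The averaged count of 14 ranged from 10 to 14 (28.8% to 38.4%) and was 9 without the 3 libraries (20.5%). With sex read from counts, the moderate count was 2 (7.44% of all genes), the enriched count 11 (28%) and the averaged count 10 (33.2%). The averaged calls of H13, Igf2, Mcts2 and Nnat and the enriched call of Mirg ended under that setting. The causes were not tested. In the diet contrasts and the interaction, 0 imprinted genes were called under every alternative. No named change reversed its direction. On the enriched diet, Ascl2, Igf2r, Ndn and Peg12 kept their call under all 27 alternatives, and averaged over diets Ascl2, Cdkn1c, Grb10, Igf2r, Nap1l5, Ndn, Peg12 and Rian under all 26. Other scaling moved the median of all genes by at most 0.02 (log2). Same-numbered libraries of different groups share only a number: over 24 pairs the correlation of their deviations ran from -0.29 to 0.51 and was over 0.1 in 8. With the replicate number as a block, 3 imprinted genes were called on the moderate diet (10% of all genes), 14 on the enriched diet (34.3%) and 14 averaged over diets (38.9%). Depth limits Ascl2, Nap1l5, Kcnq1, Slc22a18 and other genes of a few CPM, and Snrpn and Rasgrf1 could not be tested.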
